A study of Mus musculus with 4 samples.

Results

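The interferon regulatory factors are a family of DNA-binding proteins, and 8 of their genes (Irf1, Irf2, Irf3, Irf4, Irf5, Irf7, Irf8 and Irf9) are described here, chosen by gene symbol from the 16613 symbols of the count files and not by their values. RNA-seq libraries were made from GFP+ bone marrow cells of recipient mice, which had been given N-myc-transduced B220+ cells from donor bone marrow. The labels call them N-myc-induced B-ALL cells, that is, acute lymphoblastic leukaemia of the B lineage, of strain C57BL/6, with donor genotype Anp32b+/+ (wild type, 2 libraries) or Anp32b-/- (knockout, 2 libraries). All 4 libraries carry the N-myc transduction, so each comparison is between leukaemias, and animal age and the number of recipients per library were not given in the sources used here. Whether replicates are separate animals is not stated, so p-values here reflect the spread between these libraries, and that spread may be technical.

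Every member binds DNA through a conserved amino-terminal domain that reads repeats of GAAA. IRF4 and IRF8 are the lymphoid and myeloid members: they bind weakly alone, are recruited to composite sites by the ETS factors PU.1 (gene Spi1) and SPI-B or by BATF and JUN proteins, and together drive the pre-B cell out of cycle and into light chain rearrangement. IRF3, IRF5 and IRF7 are held in the cytoplasm until nucleic acid sensors trigger their phosphorylation, after which they switch on interferon genes. IRF9 joins STAT proteins in the complex ISGF3, which carries the type I interferon signal to its target genes, Irf7 among them. IRF1 is an activator induced by interferon gamma, and IRF2 competes with it for the same sites.

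Libraries held 19581575 to 19758671 estimated reads. Anp32b itself was at 774 and 853 CPM (normalised read count, scaled by library size) in wild type and at 74.4 and 70.6 CPM in knockout. It was thus lower in the libraries labelled Anp32b-/-, where 1449 and 1367 reads remained. The source of these reads was not tested. B lineage transcripts were abundant in all libraries. Cd79a, which encodes a chain of the B cell receptor complex, stood at 1893 ± 29.8 CPM in wild type against 1900 ± 41.2 CPM in knockout (SD, n = 2 each). Not all B lineage markers were as even: of 9, 5 fell in knockout in the edgeR test described below and 0 rose. Their summed level was 5661 and 5603 against 5121 and 5162 CPM. Of all tested genes, 12.6% fell and 10.9% rose. Transcripts of other cells were present, and some differed between the genotypes. All 14 neutrophil markers fell in knockout by the same test, beside 12.6% of all tested genes, and 11 were called lower by DESeq2. Their summed level was 623 and 638 against 123 and 125 CPM. Ngp, a neutrophil granule gene, alone stood at 233 and 217 CPM in wild type and at 40.4 and 42.8 CPM in knockout. In bulk RNA, fewer cells of a type and less RNA per cell cannot be told apart. The 4 Y-linked genes, which mark the sex of the cells, fell too (156 and 173 against 42.5 and 41.7 CPM). A difference in the sex of the cells therefore cannot be told apart from genotype in any comparison here.

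The promoters of 4 members are shown because they differ in a site through which interferon signals reach IRF genes. Sequences are from RefSeq (GRCm38.p6), which had windows for all 8 members, and run 5′ to 3′ upstream of an annotated start site, with bases in GENCODE exons or in the gene's own RefSeq span left out. Capitals mark matches to the gamma-activated site that STAT proteins bind (GAS, searched as TTCNNNGAA).
Irf1, chr11:53769764-53770013, plus strand: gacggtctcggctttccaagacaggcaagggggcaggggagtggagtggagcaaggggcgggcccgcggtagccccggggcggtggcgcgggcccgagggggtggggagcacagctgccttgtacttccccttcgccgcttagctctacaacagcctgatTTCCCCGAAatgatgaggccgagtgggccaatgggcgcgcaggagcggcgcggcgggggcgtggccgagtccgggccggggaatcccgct
Irf8, chr8:120736108-120736357, plus strand: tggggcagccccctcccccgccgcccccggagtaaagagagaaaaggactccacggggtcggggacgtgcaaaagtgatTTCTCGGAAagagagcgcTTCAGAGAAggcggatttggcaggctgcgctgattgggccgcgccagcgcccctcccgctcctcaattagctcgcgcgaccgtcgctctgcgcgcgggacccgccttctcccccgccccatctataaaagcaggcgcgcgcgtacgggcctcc
Irf4, chr13:30748983-30749225, plus strand: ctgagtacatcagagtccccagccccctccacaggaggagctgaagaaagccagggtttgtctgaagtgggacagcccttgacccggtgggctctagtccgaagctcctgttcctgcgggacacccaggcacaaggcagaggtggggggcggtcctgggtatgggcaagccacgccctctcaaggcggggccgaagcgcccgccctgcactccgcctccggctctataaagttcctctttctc
Irf7, chr7:141266500-141266674, minus strand: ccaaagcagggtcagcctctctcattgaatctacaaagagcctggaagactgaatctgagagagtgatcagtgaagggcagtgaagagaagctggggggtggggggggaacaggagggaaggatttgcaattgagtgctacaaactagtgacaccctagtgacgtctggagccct
The Irf1 match spans positions -90 to -82 and the Irf8 matches span -171 to -163 and -153 to -145, counted back from the last base before the start site. The table anchors the Irf7 and Irf5 windows on start sites 75 and 495 bases inside the RefSeq span of the gene, so less sequence before these genes was searched. Neither Irf9 window had an upstream base outside GENCODE exons and the RefSeq span of the gene. In the Irf3 window the longest such stretch was 65 bases. The search covered exon bases too, so for Irf9 and Irf5 it read annotated gene sequence only before the start. On both strands of windows reaching from 250 bases before to 50 bases after each start, GAS was found for 3 of the 8 members (Irf1, Irf2 and Irf8) and for 9.55% of 27025 genes in the table. The interferon-stimulated response element, which ISGF3 and IRF1 bind (ISRE, searched as GAAANNGAAA), was found only in Irf2 among the members (3.99% of genes), as GAAAATGAAA at -241 to -232. It overlaps a match there to the composite ETS and IRF element (EICE, searched as GGAANNGAAA, in 3.16% of genes), GGAAGTGAAA at -247 to -238. Composite elements for BATF and IRF (searched as GAAATGANTCA and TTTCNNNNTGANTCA) were in none of these members' windows and in 0.141% and 0.133% of genes. A match is a description of letters, and no match says only that these letters are not in the window.

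Irf4 was the most abundant member in every library, and its level fell in the knockout (plot of normalised counts). Scaled to transcript length (RPKM, the CPM per kb of transcript), the wild-type order was Irf4 at 86.0 ± 2.10, Irf3 at 52.8 ± 2.06, Irf5 at 50.5 ± 1.58, Irf2 at 47.4 ± 0.39, Irf8 at 34.9 ± 1.65, Irf1 at 23.5 ± 0.085, Irf9 at 15.3 ± 1.49 and Irf7 at 2.43 ± 0.27 RPKM (SD, n = 2). Irf3 and Irf5 did not differ beyond their spread in wild type, and Irf5 was the higher of them in wild-type replicate 1. In knockout the order by mean was the same, from Irf4 at 70.1 ± 0.99 RPKM through Irf3 at 57.9 ± 0.35, Irf5 at 53.2 ± 2.43 and Irf2 at 51.3 ± 0.74 to Irf7 at 0.73 ± 0.073 RPKM (SD, n = 2), and Irf5 and Irf2 lay within their spread. The place of Irf2 depends on the transcript used: with the longest coding transcript in place of the median length, an alternative chosen after seeing the data, its wild-type level was 28.8 RPKM, close to Irf8 at 27.8 RPKM, and Irf5 (49.3 RPKM) stood above Irf3 (44.5 RPKM). Among 11649 tested genes with a transcript length, Irf4 lay at percentile 91.0 of wild-type level, Irf3 at 85.3 and Irf7 at 23.7.

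**Figure D1:**
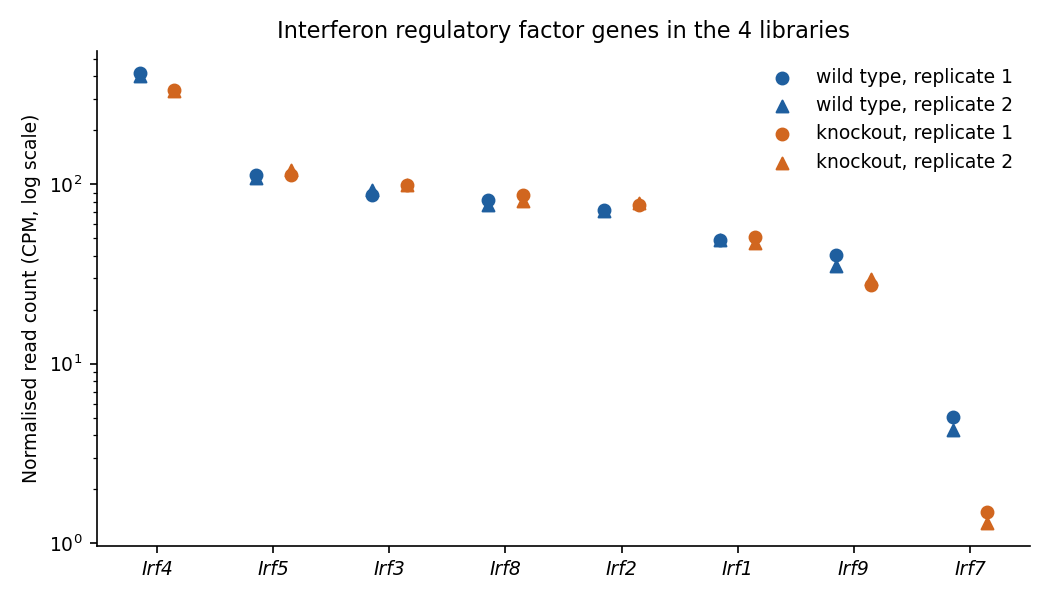
Normalised read count (CPM, log scale) of the 8 genes, ordered by wild-type level, with 1 point per library: circles are replicate 1, triangles replicate 2, blue wild type, orange knockout. The libraries of the genotypes are apart for Irf4, Irf9 and Irf7, which are lower in knockout, and by a smaller step for Irf3 and Irf2, which are higher.

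Irf7, Irf9 and Irf4 fell in the knockout libraries, and the other 5 members did not pass the test. The test was edgeR's quasi-likelihood test across 12123 genes, and a gene was called at a Benjamini-Hochberg adjusted p under 0.05. So 3 of 8 members were called lower (37.5%), where 12.6% of all tested genes were called lower and 23.6% in either direction. No member was called higher (10.9% of all tested genes were), with 1 at an unadjusted p under 0.05, Irf3, and 0 called higher by DESeq2 or limma-voom. The median log2 fold change of the 8 members was 0.04, beside 0.0021 for all tested genes. The libraries of the genotypes did not overlap for 5 members, 3 lower and 2 higher in knockout. That separation was seen for 60.5% of tested genes. With 2 libraries on each side, the smallest p of an exact permutation test is 0.333, so none was run on single genes.

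**Figure D2:**
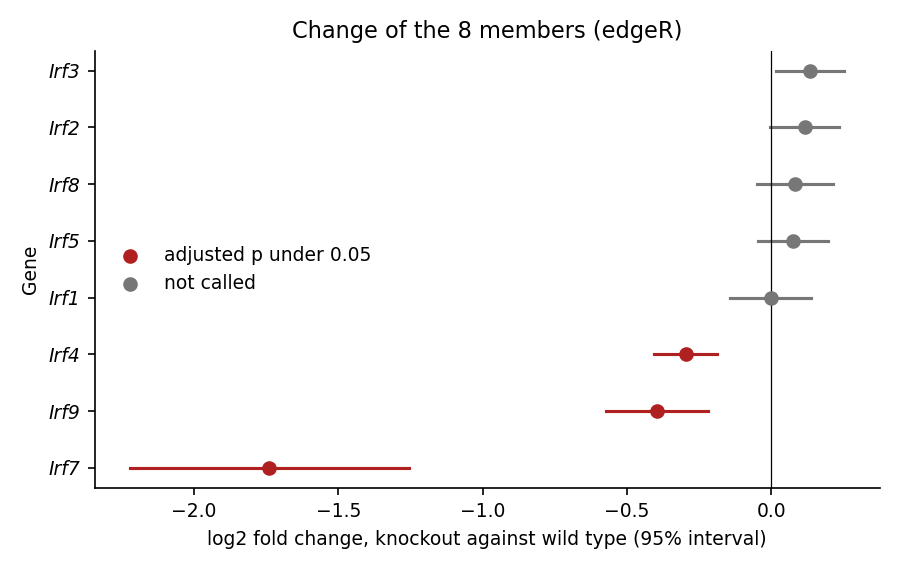
Log2 fold change of each member, knockout against wild type, with its 95% interval from the edgeR fit; red marks an adjusted p under 0.05. Irf7 lies at -1.74, far from Irf9 at -0.40 and Irf4 at -0.30, and the intervals of Irf1, Irf2, Irf5 and Irf8 include 0.

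Irf4 was at 417 and 403 CPM in the wild-type libraries and at 337 and 330 CPM in the knockout libraries. The higher knockout library lay well below the lower wild-type library, and replicates differed by far less than the genotypes. The fit gave a log2 fold change of -0.30 (SE 0.05, adjusted p = 0.000655, 95% interval -0.41 to -0.19), 1.23-fold lower in knockout. With 16289 reads in wild type and 12961 in knockout, Irf4 was the most deeply counted member. Irf4 occupies chromosome 13 from 30749233 to 30766981 (GRCm38), and its exons share no base with another annotated gene. It missed the threshold when knockout replicate 2 was left out (log2 fold change -0.28, adjusted p = 0.0955). When a knockout library is left out, the wild-type pair sets the spread, and it varied more than the knockout pair (chi-square per degree of freedom 5.29 and 2.09).

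Irf8, the closest relative of Irf4, did not pass the test. It was at 81.9 and 76.6 CPM in wild type and at 87.0 and 80.8 CPM in knockout, so the genotypes overlapped. The edgeR fit gave a log2 fold change of 0.08 (SE 0.06, adjusted p = 0.373, 95% interval -0.05 to 0.21), an interval that excludes a fall of the size fitted for Irf4 and leaves room for a small rise. The ratio of Irf4 to Irf8, each per length, was 2.43 and 2.51 in the wild-type libraries and 1.85 and 1.95 in the knockout libraries. Irf4 remained the more abundant of this pair in all 4 libraries. The difference between their changes was not tested.

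Irf7, the member with the lowest level, changed the most. It was at 5.02 and 4.29 CPM in wild type and at 1.49 and 1.29 CPM in knockout, which rest on 100 and 85 reads against 29 and 25. Both knockout libraries lay far below both wild-type libraries. The fitted change was a log2 fold change of -1.74 (SE 0.22, adjusted p = 5.31e-05, 95% interval -2.22 to -1.26), and 1.81% of all tested genes had a lower value. The ratio of wild-type to knockout reads, scaled for library size, was 3.35, with a 95% counting interval (exact Clopper-Pearson) of 2.46 to 4.62 that covers counting error only. Irf7 lies on chromosome 7 at 141263183 to 141266499, and 1.19% of its exon bases are shared with Phrf1 on the opposite strand. It was called under each of the 10 alternatives that kept it in the table (adjusted p at most 0.0129). A filter of 10 CPM removes it.

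Plasmacytoid dendritic cells carry much Irf7, and markers of dendritic and other cells were lower in knockout in part. Of 9 tested dendritic cell markers, 3 fell and 6 were not called, with 0 called by DESeq2. Their list had a summed level of 12.4 and 12.1 against 6.52 and 6.97 CPM. For comparison, 12.6% of all tested genes were called lower and 10.9% higher. Siglech, a surface lectin of plasmacytoid dendritic cells, was at 47 and 43 reads in wild type and 14 and 20 in knockout. Of 9 tested monocyte and macrophage markers, 6 fell (summed level 113 and 107 against 49.7 and 46.4 CPM). The 14 neutrophil markers and the 4 Y-linked genes, which mark sex and not a cell type, fell as given above. No marker in these lists was at 0 in all 4 libraries, and Klk1 (dendritic cells) and Cd3e (T cells) had 0 reads in both knockout libraries beside 10 and 2, and 2 and 4, in wild type. Of 3 tested NK cell markers 2 fell (summed level 5.57 and 6.96 against 1.39 and 1.96 CPM), while of 4 tested T cell markers 2 fell and 1 rose (summed level 49.8 and 51.1 against 51.9 and 49.3 CPM). The part of these cells in the fall of Irf7 was not tested.

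Irf3 and Irf5, which act beside Irf7 downstream of the sensors, had slightly higher means in knockout and did not pass the test. Irf3 was at 87.8 and 92.8 CPM in wild type and at 98.7 and 99.5 CPM in knockout, without overlap. In edgeR this was a log2 fold change of 0.13 (SE 0.06, unadjusted p = 0.0299, adjusted p = 0.0993, 95% interval 0.01 to 0.25). It was called higher without wild-type replicate 2 (0.17, adjusted p = 0.0275). Irf5 was at 113 and 108 CPM in wild type and at 113 and 120 CPM in knockout. These values overlapped, with a log2 fold change of 0.07 (95% interval -0.05 to 0.19, adjusted p = 0.385). The reading of Irf5 has a limit of its own: 14.1% of its exon bases are shared with Tnpo3 on the opposite strand, and no source used here says whether counting used strand. Irf3 shares 2.56% with Bcl2l12 in the same way. Per length, Irf3 stood 19.6-fold and 24.2-fold above Irf7 in the wild-type libraries and 74.2-fold and 86.3-fold above it in the knockout libraries.

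The fall of Irf9 was smaller, and its interval did not overlap that of Irf7. It was at 40.2 and 35.0 CPM in wild type and at 27.5 and 29.7 CPM in knockout, and the lower wild-type library lay above both knockout libraries. For Irf9, edgeR gave a log2 fold change of -0.40 (SE 0.08, adjusted p = 0.00288, 95% interval -0.57 to -0.22), 1.32-fold lower. Its wild-type replicates differed by a ratio of 1.15, close to that of Irf7 (1.17), where the other 6 members stayed between 0.946 and 1.07. It missed the threshold without knockout replicate 1 (-0.34, adjusted p = 0.0684), without knockout replicate 2 (-0.45, adjusted p = 0.0611) and with no filter on low counts (-0.39, adjusted p = 0.0830). Irf9 lies on chromosome 14 at 55603985 to 55610030, where 2.28% of its exon bases are shared with Rnf31 on the same strand.

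Irf1, the activator whose promoter match is shown above, differed between the genotypes by less than the spread of the knockout libraries. It was at 49.2 and 49.0 CPM in wild type and at 50.8 and 47.2 CPM in knockout, so the wild-type values lay within the knockout range. The edgeR test gave a log2 fold change of -0.0028 (SE 0.07, adjusted p = 0.980, 95% interval -0.14 to 0.14), and its sign changed with the setting. An overlapping antisense gene, Gm17334, shares 3.4% of its exon bases. Irf2, its competitor, was at 72.3 and 71.5 CPM in wild type and at 77.0 and 78.6 CPM in knockout, without overlap. Its log2 fold change of 0.12 (SE 0.06, 95% interval -0.0049 to 0.24, adjusted p = 0.161) did not pass the test. Of the 3 genes for IRF2 binding cofactors, edgeR, DESeq2 and limma-voom called 0, and 0 had an unadjusted p under 0.05. The most abundant of them, Irf2bp2, had 109 ± 1.18 CPM in wild type against 104 ± 1.21 CPM in knockout (SD, n = 2).

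**Figure D3:**
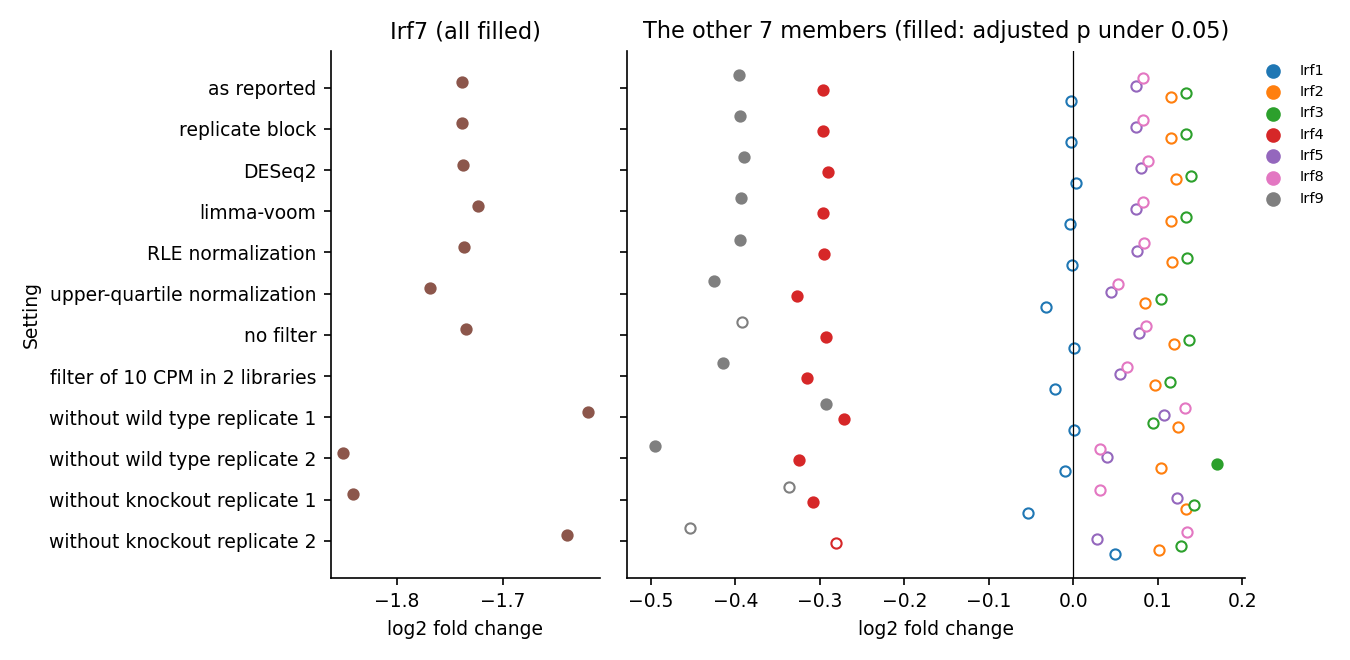
Log2 fold change of the 8 members as reported and under 11 other settings, Irf7 on its own axis at left and the others at right; filled points have an adjusted p under 0.05. Irf7, Irf9 and Irf4 stay below 0 in each setting shown, with open points for Irf9 under 3 settings and for Irf4 under 1, and Irf1 crosses 0.

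Summed over the 8 members, length-scaled RNA differed little between the genotypes. The sum was 317 and 309 RPKM in wild type and 305.2 and 305.1 RPKM in knockout. Within it the shares shifted. Irf4 made up 27.6% and 27.4% of the sum in wild type and 23.2% and 22.7% in knockout, while Irf3 made up 16.2% and 17.6% against 18.9% and 19.0%. Irf9 went from 5.16% and 4.61% to 3.66% and 3.96%, and Irf7 from 0.827% and 0.724% to 0.255% and 0.221%. Shares of a sum are tied to each other, so a smaller share of Irf4 raises the rest.

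**Figure D4:**
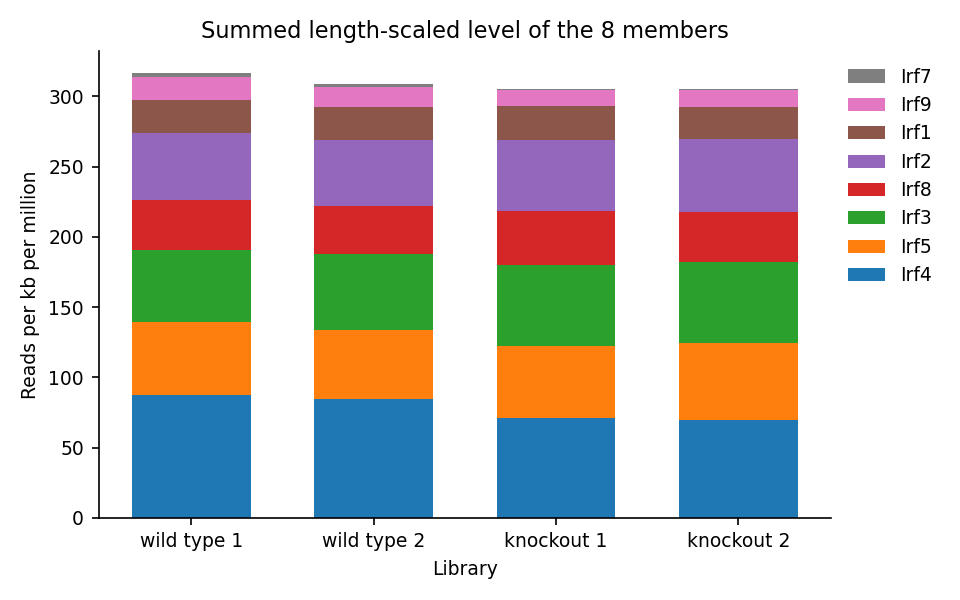
Level per transcript length (RPKM) of the 8 genes stacked for each library. The stacks reach 317 and 309 in wild type and 305 in both knockout libraries, and the Irf4 block at the base is smaller in both knockout libraries.

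The receptor and kinase genes upstream of IRF9 and IRF1 fell in part. Of 11 genes for interferon receptors and JAK-STAT factors, 6 fell, with a median log2 fold change of -0.21. None was called higher by edgeR (1 at an unadjusted p under 0.05, and 0 by DESeq2 or limma-voom). The shares over all tested genes were 12.6% lower and 10.9% higher. Ifngr1, the ligand-binding chain of the interferon gamma receptor, fell from 60.0 ± 0.88 to 44.6 ± 0.37 CPM (edgeR adjusted p = 0.000146, log2 fold change -0.43, SE 0.06) and the kinase gene Jak1 fell too (log2 fold change -0.24, SE 0.05). The Jak1 call was lost without either knockout replicate (adjusted p = 0.138 and 0.113). Over leaving out each library in turn, 2 to 6 genes of this list were called lower.

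Of 9 tested brakes on interferon signalling, 1 rose and 2 fell (median log2 fold change -0.10). The share that rose was near that of all tested genes (10.9%). The share that fell was above that of all tested genes (12.6%) but rests on 2 genes. Usp18, a protease that blocks the type I receptor and is itself interferon-induced, fell from 4.88 ± 0.84 to 1.03 ± 0.077 CPM (edgeR adjusted p = 1.12e-05, log2 fold change -2.24, SE 0.25). Trim21, a ubiquitin ligase that acts on IRF proteins, had a log2 fold change of -0.54 (SE 0.11) and was no longer called with no filter (adjusted p = 0.0667) or without knockout replicate 1 (0.0544). Ptpn6, the gene of an inhibitory tyrosine phosphatase, rose from 90.5 ± 2.32 to 144 ± 0.60 CPM. Leaving out wild-type replicate 1 gave 3 higher and 4 lower.

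Upstream of IRF3, IRF5 and IRF7, 5 of 23 tested sensing genes rose and 5 fell (median 0.04). Of all tested genes, 10.9% were called higher and 12.6% lower. Nucleic acid sensors were called in both directions. Zbp1 fell from 7.14 ± 0.66 to 0.87 ± 0.36 CPM (edgeR adjusted p = 4.69e-07, log2 fold change -3.02, SE 0.24), the RIG-I gene Ddx58 fell by 0.66 (SE 0.09) and its relative Dhx58 by 1.00 (SE 0.14) on the log2 scale. The other 2 that fell were Ifih1 and Tlr7. Zbp1, Ddx58 and Dhx58 are also interferon-induced genes in many cells. The called rises were Sting1, Tlr9, Irak1, Traf3 and Slc15a4, between 0.19 and 0.44 on the log2 scale, with the DNA sensor Tlr9 at 0.44 (edgeR adjusted p = 0.0286). The DNA sensor Cgas did not pass the test (log2 fold change 0.09, SE 0.26). The genes of this paragraph other than Zbp1, Ddx58 and Dhx58 are named after their values were seen. Without knockout replicate 1, 1 gene was called higher and 5 lower; without knockout replicate 2, 2 and 4.

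Genes downstream of ISGF3 fell broadly. Of 30 tested type I interferon-stimulated genes, 26 fell (median log2 fold change -1.08), where 12.6% of all tested genes were called lower. All 30 had lower values in knockout without overlap of the genotypes. Such separation, in either direction, was seen for 60.5% of all tested genes. No gene of this list was called higher by edgeR, DESeq2 or limma-voom, and 0 were at an unadjusted p under 0.05 in that direction. Oas1a fell by 3.11 (SE 0.16), Trim30a by 1.08 (SE 0.07) and Lgals3bp by 1.25 (SE 0.09) on the log2 scale (edgeR adjusted p at most 1.11e-07). Trim30a is a negative regulator of inflammatory signalling, and Lgals3bp encodes a secreted glycoprotein. Leaving out each library gave 18 to 26 genes called lower. Earlier results of these data had shown this fall when the list was drawn up, so it is no independent evidence of direction. Irf7, a target of the same complex, had a larger fall than the list's median, and Irf9 a smaller one.

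Genes linked to interferon gamma and IRF1 fell in part, while Irf1 itself was not called. Of 22 tested, 10 fell and 1 rose, Ciita, the class II transactivator (median -0.17). Among all tested genes, 12.6% were called lower and 10.9% higher. Gbp9 and Gbp2, guanylate-binding proteins of cell-autonomous defence, fell (log2 fold changes -0.88, SE 0.07, and -0.70, SE 0.06), and Iigp1, an immunity-related GTPase, fell from 4.50 ± 0.12 to 0.54 ± 0.18 CPM (edgeR adjusted p = 2.24e-06, log2 fold change -3.04, SE 0.28). The guanylate-binding proteins are a family of close copies, between which reads may have been split. Leaving out each library gave 6 to 10 called lower, and the call of Ciita was lost in some of these fits (0 to 1 called higher). Neutrophil, monocyte and Y-linked transcripts were lower in the same knockout libraries, at the levels given above. Their part in the falls of these interferon lists was not tested.

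**Figure D5:**
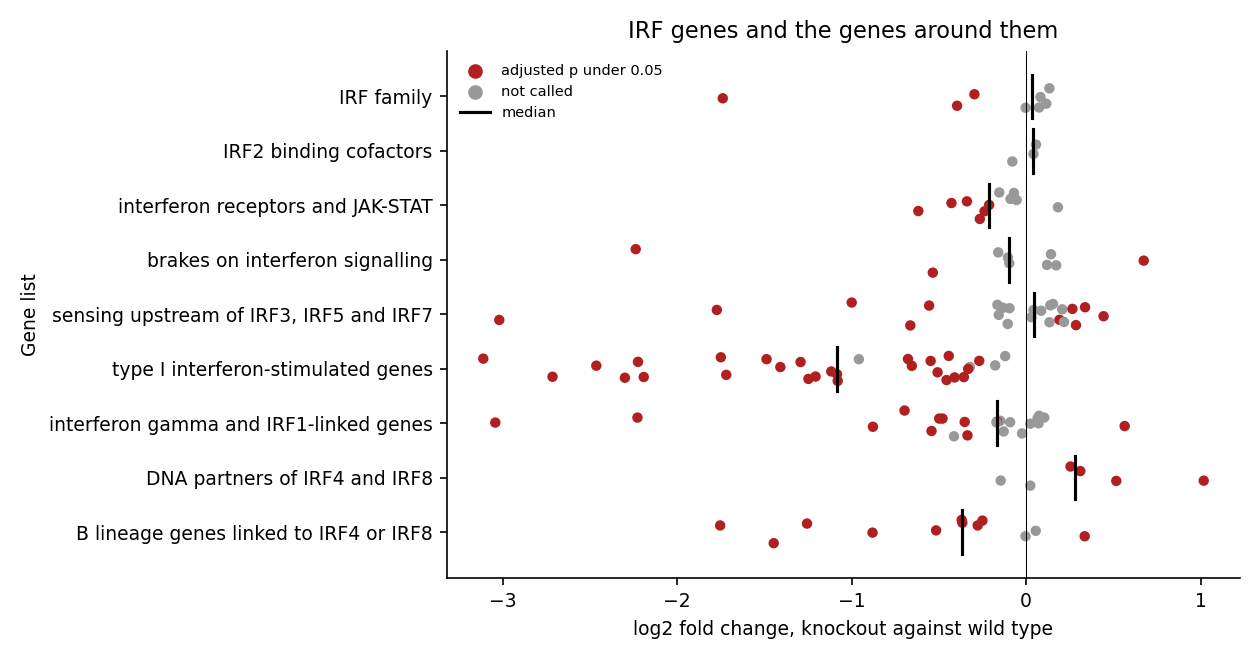
Log2 fold change of each tested gene in the IRF family and 8 lists of genes around it, red where the adjusted p was under 0.05, with a black bar at each list's median. The type I interferon-stimulated genes lie to the left of 0 with a median of -1.08, and the DNA partners of IRF4 and IRF8 lie mostly to the right.

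Several DNA partners of IRF4 and IRF8 rose while Irf4 fell. Of 6 tested partners, 4 rose (median 0.28), where 10.9% of all tested genes were called higher and 12.6% lower. None was called lower by edgeR, DESeq2 or limma-voom (1 at an unadjusted p under 0.05). That gene was Tcf3, which encodes the E2A factor, whose wild-type level was 758 ± 50.4 CPM beside 685 ± 14.6 CPM in the knockout libraries (a log2 difference of -0.15, SE 0.06, edgeR adjusted p = 0.0774). It was called lower without wild-type replicate 2 (-0.22, adjusted p = 0.000918), with upper-quartile normalization (adjusted p = 0.0347) and with the filter of 10 CPM (adjusted p = 0.0469). Batf, which pairs with JUN proteins to recruit IRF4, rose from 3.90 ± 0.12 to 7.90 ± 0.87 CPM (edgeR adjusted p = 0.000231, log2 fold change 1.02, SE 0.15). Junb rose by 0.52 (SE 0.06) and Spib, the ETS partner related to PU.1, by 0.31 (SE 0.05). Spib missed the threshold without knockout replicate 2 (adjusted p = 0.0739). Spi1, at 65.3 ± 4.20 against 66.4 ± 2.5 CPM, did not pass the test. Leaving out each library gave 2 to 4 partners called higher and 0 to 1 called lower.

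B lineage genes linked to IRF4 or IRF8 were lower in most cases. The list does not give the direction of each link, and whether these genes follow Irf4 was not tested. Of 12 tested, 9 fell and 1 rose (median -0.37), where 12.6% of all tested genes were called lower and 10.9% higher. The recombinase gene Rag1 fell from 36.3 ± 1.77 to 10.8 ± 0.54 CPM (edgeR adjusted p = 4.27e-09, log2 fold change -1.75, SE 0.09) and Rag2 by 1.26 (SE 0.11) on the log2 scale. Ebf1, an early B cell factor, fell by 0.52 (SE 0.05). The member that rose was Ikzf3, which encodes Aiolos, a factor that IRF4 and IRF8 switch on in pre-B cells, from 116 ± 14.9 to 146 ± 4.82 CPM. This call was lost without either knockout replicate and with no filter (0 called higher in each). Among 9 B lineage markers, 5 fell and none was called higher by any of the 3 tools (0 at an unadjusted p under 0.05), with summed levels of 5661 and 5603 against 5121 and 5162 CPM. Leaving out each library gave 4 to 9 of the IRF-linked genes called lower.

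IRF4 is also a plasma cell factor. Of 5 tested plasma cell markers 3 fell and 1 rose, beside 12.6% and 10.9% of all tested genes. The summed level was 604 and 619 CPM in wild type against 559 and 583 CPM in knockout. Those that fell were Jchain, at 38.5 ± 7.02 and 9.40 ± 0.22 CPM, Prdm1, at 1.48 ± 0.031 and 0.54 ± 0.18 CPM, and Mzb1 (log2 fold change -0.16, edgeR adjusted p = 0.0402). Jchain joins secreted antibodies, and Prdm1 encodes the plasma cell regulator BLIMP-1. Xbp1, the secretory pathway factor, rose by 0.19 on the log2 scale, from 191 ± 2.99 to 218 ± 9.10 CPM (edgeR adjusted p = 0.0164), a call lost without either knockout replicate (adjusted p = 0.0890 and 0.328) and with no filter. Sdc1, the surface marker CD138, did not pass the test (30.6 ± 0.37 and 28.9 ± 3.01 CPM). DESeq2 called 1 of these 5 markers lower and 1 higher. Tnfrsf17, the plasma cell receptor BCMA, had 3 and 2 reads in wild type and 1 and 0 in knockout. The part of plasma cells in the fall of Irf4 was not tested. Erythroid markers did not pass the test (summed level 214 and 233 against 240 and 245 CPM), with 0 of 8 called by edgeR, DESeq2 or limma-voom and 2 higher at an unadjusted p under 0.05.

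Genes with the profile most like each called member over the 4 libraries were found by the smallest Euclidean distance between centred log2 CPM values. Predicted genes, antigen receptor segments, Xlr genes, Y-linked genes and the other members were left out, so closer genes may exist among these. For Irf7 these were Rnf32 (distance 0.0933), Eya2 (0.0935) and Tcf7l1 (0.102). Tcf7l1, a TCF/LEF factor, was at 3.51 and 3.08 CPM in wild type and 1.08 and 0.981 CPM in knockout. For Irf4 they were Ogfrl1 (0.0073), Ndufaf3 (0.0104), an assembly factor of respiratory complex I, and Vmac (0.021). Vmac itself did not pass the test (edgeR adjusted p = 0.0984). Ogfrl1 was at 50.4 and 49.0 CPM in wild type and 40.8 and 39.9 CPM in knockout. For Irf9 they were Ppp2r5b (0.02), a phosphatase subunit gene, Maml2 (0.0241), a Notch coactivator gene, and Arhgef39 (0.0398). Maml2 was at 19.8 and 17.4 CPM in wild type and 13.8 and 14.7 CPM in knockout, and shared with Irf9 the gap between the wild-type libraries. The likeness rests on 4 libraries and is a description only.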

How the data were processed

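RNA-seq was available for 4 libraries, 2 of each labelled genotype. Total RNA was extracted with Trizol, per the labels' protocols. The deposited files hold estimated counts (expected counts) of reads per gene symbol, 1 file per library, not scaled between libraries. GRCm38, HISAT2 2.0.4 and DESeq2 1.4.5 appear in the submitters' processing notes, without their roles. Annotation, counter, strand setting and filters were not given in the sources used here.

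Counts were rounded to whole numbers and tested with edgeR 4.0.16 (R 4.3.3): TMM normalization, filterByExpr with a minimum count of 10, no covariate, Benjamini-Hochberg adjustment over all tested genes (12123 tested, 4490 below the filter). CPM include the TMM factors. The procedure was tested on simulated data, with 50 genes changed at each size. It recovered 68% of changes of 1.3-fold, 82% of 1.5-fold and 100% of 2-fold and 4-fold. Every simulated gene had the same fixed dispersion in all libraries, and genes of the lowest levels were not changed. The real pairs differed in spread (chi-square per degree of freedom 5.29 in wild type and 2.09 in knockout), so these rates may not hold for the real libraries. Smaller changes were not simulated. Alternatives were the replicate block, DESeq2 1.42.0, limma-voom (limma 3.58.1), RLE and upper-quartile normalization, no filter, a filter of 10 CPM in 2 libraries, and leaving out each library. RPKM used the median length of the coding transcripts of GENCODE's basic set on GRCm38. Of the symbols, 99.6% matched a RefSeq gene. A pseudocount of 0.1 CPM was added for pattern distances.

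The members and the gene lists were chosen with earlier results of these data known. Genes named by rule are the 8 members, Anp32b, the 3 called genes with the smallest p in each list around the family (or the most abundant where none was called), and the 3 genes closest in pattern to each of the 3 called members with the smallest p. Other genes were named after their values were seen. Some of the genes selected this way are not reported here.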

Additional observations from a re-analysis of the deposited data

How the results depend on the processing

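Irf7, Irf9 and Irf4 kept their direction under every alternative run that tested them, and Irf2, Irf3, Irf5 and Irf8 stayed above 0. The log2 fold change of Irf1 turned positive with DESeq2 (0.0030), with no filter (0.00091), and without knockout replicate 2 (0.0495) or wild-type replicate 1 (0.0011). Leaving out a library gave values from -0.054 to 0.050, and Irf1 was not called under any alternative (lowest adjusted p over its alternatives 0.775). Leaving out each library gave 1 to 3 members called lower and 0 to 1 called higher. Over all genes, the count called higher was 680 with DESeq2, 547 with no filter and 372 to 1676 when a library was left out, beside 1323 as reported. The count called lower was 714, 744 and 579 to 1712, beside 1533. Counts in the lists around the family moved by over 1.5 times too. Receptor and JAK-STAT genes called lower were 3 with DESeq2 and with no filter, and sensing genes called higher were 2 with each. Type I interferon-stimulated genes called lower were 15 and sensing genes called lower were 2 with the filter of 10 CPM, which tests fewer genes. Interferon gamma genes called lower were 6 with no filter, and Ciita was not called with DESeq2 or with no filter and was removed by the filter of 10 CPM. The cause was not tested for the other settings. Same-numbered replicates of the genotypes did not deviate together (correlation of deviations 0.03), so they share only a number. With the replicate number as a block, 1644 genes were called higher and 1779 lower, and 3 members lower. Among the other named genes, 330 values under the alternatives kept direction and call, 31 lost the call and 4, all of Tcf3, gained one, with the direction kept. Of these, 1 was with the replicate block (adjusted p = 0.0367). With 25 to 100 reads per library, Irf7 is limited by counting.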
